A study of Mus musculus with 8 samples.

Results

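The genes described here are the splicing factors and nuclear RNA-binding proteins of the mouse kidney libraries, namely the SR proteins (symbols Srsf), the heterogeneous nuclear ribonucleoproteins (Hnrnp), the SF3A and SF3B subunits of the U2 particle (Sf3a, Sf3b), the core proteins of the small nuclear ribonucleoproteins (Snrp) and the numbered RNA-binding motif proteins (Rbm). They were chosen by symbol and by depth: of 25240 genes in the count table, 93 carried a matching symbol, and 86 of these had 10 or more counts in at least 4 of the 8 libraries. The fit across all genes tested 14284 genes, among them 85 of the 86 members, because the pseudogene Hnrnpa1l2-ps2 did not pass its filter on low counts. The 7 matching genes under the depth rule were Rbm24, Rbm4, Rbm31y, Rbm44, Rbm46, Rbm46os and Snrpn. All 8 libraries came from kidney cells of p16-tdTomato mice, which carry a red fluorescent reporter tied to the cell-cycle inhibitor p16, and in every mouse chronic kidney disease was induced with a diet rich in adenine. In each of 4 title identifiers, 2 of prefix CKD523 (CKD523_2, CKD523_3) and 2 of prefix CKD627 (CKD627_1, CKD627_2), 1 library was made from Tomato-positive and 1 from Tomato-negative cells, which gave 4 libraries a group. No library from a mouse without the diet was analysed here, so every value belongs to the adenine condition; no label gives the age of the mice, the length of the diet or the form of the reporter allele. The labels call the cells proximal tubular epithelial cells and do not say what the prefix stands for, nor that the identifiers were separate mice, so p-values measure the spread between these libraries.

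Splicing removes introns from nascent transcripts in the nucleus. The small nuclear ribonucleoprotein particles that carry it out are built around a small nuclear RNA, and most hold a ring of Sm proteins; SF3B with SF3A anchors the U2 particle at the branch point. SR proteins bind exons and mostly favour their inclusion, hnRNPs often oppose it, and many RBM proteins tune splicing, methylation, export or decay of particular RNAs. Many SR protein and hnRNP genes also control their own level through alternative exons that send the transcript to nonsense-mediated decay. The table gives 1 count per gene, so it measures how much RNA of each factor was present and not which exons were joined.

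Total counts ran from 13474439 to 19886202 a library, and the tdTomato transcript stood at 87.3 to 152 CPM (counts scaled to a common library size with TMM factors, the scale of all levels below) in the Tomato-negative and at 3224 to 4184 CPM in the Tomato-positive libraries, as labelled. All 14 proximal tubule markers had counts, but their summed level was 6920 to 30483 CPM in Tomato-negative and 4523 to 12749.5 CPM in Tomato-positive libraries, and markers of collecting duct principal cells summed to 231 to 2344 and 1054 to 5377 CPM. By prefix, the proximal tubule markers summed to 12442 to 30483 CPM in CKD523 and 4523 to 8463 CPM in CKD627. In the prefix comparison 14 of 14 were lower in CKD627, where 21.8% of all genes were called. Thick ascending limb markers summed to 1835 to 4727 CPM in CKD523 and 5683 to 14257 CPM in CKD627. In the Tomato-negative libraries CKD627_1 and CKD627_2 they stood above the proximal tubule sum (12113 and 14257 against 6920 and 8463 CPM). Between prefixes 6 of these 7 were higher in CKD627 and 1 lower, and 10 of 10 endothelial markers were higher. Marker levels thus differed with the Tomato group and with the prefix, and for the results below more cells of a type and more RNA per cell cannot be told apart. Of 10 lymphocyte markers, 7 had fewer than 10 counts in every library.

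The 86 members together held 8539 to 9862 CPM in the Tomato-negative and 8970.3 to 9812 CPM in the Tomato-positive libraries, so the ranges overlapped. Per kilobase of merged exons, the mean level over the 8 libraries ran from 0.254 CPM for Srsf12 to 160.0 ± 19.95 CPM (SD, n = 8) for Hnrnpab, with a median of 13.4. After Hnrnpab came Hnrnpa0 at 129 ± 27.2, Hnrnpa2b1 at 97.1 ± 8.02, Hnrnpf at 85.6 ± 3.39 and Srsf2 at 82.6 ± 10.6 CPM per kilobase. Mean and SD ranges overlapped between Hnrnpab and Hnrnpa0, Hnrnpa0 and Hnrnpa2b1, and Hnrnpf and Srsf2, and those of Hnrnpa2b1 and Hnrnpf nearly met, so single ranks are loose. Per kilobase, 8 members stood above 50 CPM, of which 5 were hnRNPs, 2 were SR proteins and 1 was the Sm protein gene Snrpb. At the other end Srsf12 and the tissue-restricted Rbm11 were under 1 CPM per kilobase. Hnrnpa1, an abundant hnRNP of cultured cells, had few counts here (125 to 314 a library), and 28.2% of the 50-base words of its exons also occur in other genes, nearly all of them in Gm10052, so its reads may be shared with that copy.

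The first question was whether any of these genes differed between Tomato-positive and Tomato-negative cells. No member passed an adjusted p of 0.05 in edgeR's quasi-likelihood test with Benjamini-Hochberg adjustment, where 0.595% of all 14284 genes did; 4 members (4.71%, against 17.8% of all genes) were under an unadjusted p of 0.05, 3 of them higher (Hnrnph3, Hnrnpll, Rbm33) and 1 lower (Snrpd2), and DESeq2 and limma-voom without pairing also called 0. With the identifier as a block, so that each Tomato-positive library was set against its own Tomato-negative partner, 7.62% of all genes passed and again 0 of the 85 members, with 6 members higher and 1 lower at an unadjusted p under 0.05 (8.24%, against 25% of all genes). Closest were Rbm33, with a paired log2 difference of 0.60 ± 0.16 (SE) and an adjusted p of 0.0535 in paired edgeR, and Snrpd2, with -0.63 ± 0.20 and 0.0868. The median unpaired log2 difference was 0.04 over the members and 0.01 over all genes tested.

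The absence of calls came with narrow intervals. For 73 of the 85 members (85.9%) the 95% interval of the unpaired log2 difference lay wholly between a 2-fold decrease and a 2-fold increase, against 54.7% of all genes tested and 76.8% of the 5692 other genes whose level fell in the middle range of the members' levels. For 43 members (50.6%) it lay within 1.5-fold, against 22.3% of all genes and 37.7% of those other genes. The level range of those other genes held only 43 of the 85 members, so these shares are not matched in level. The 12 members whose interval reached past 2-fold were Srsf12, Rbm3os, Rbm11, Snrpg, Snrpc, Snrpd2, Snrpe, Hnrnpa1, Rbm12b1, Rbm15, Rbm33 and Rbm38; only for Rbm33 and Snrpd2 did it exclude 0. The median biological coefficient of variation, edgeR's measure of the spread between libraries of a group, was 0.209 for all 85 members. It was 0.276 for all genes and 0.213 for those other genes in the middle range.

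**Figure D1:**
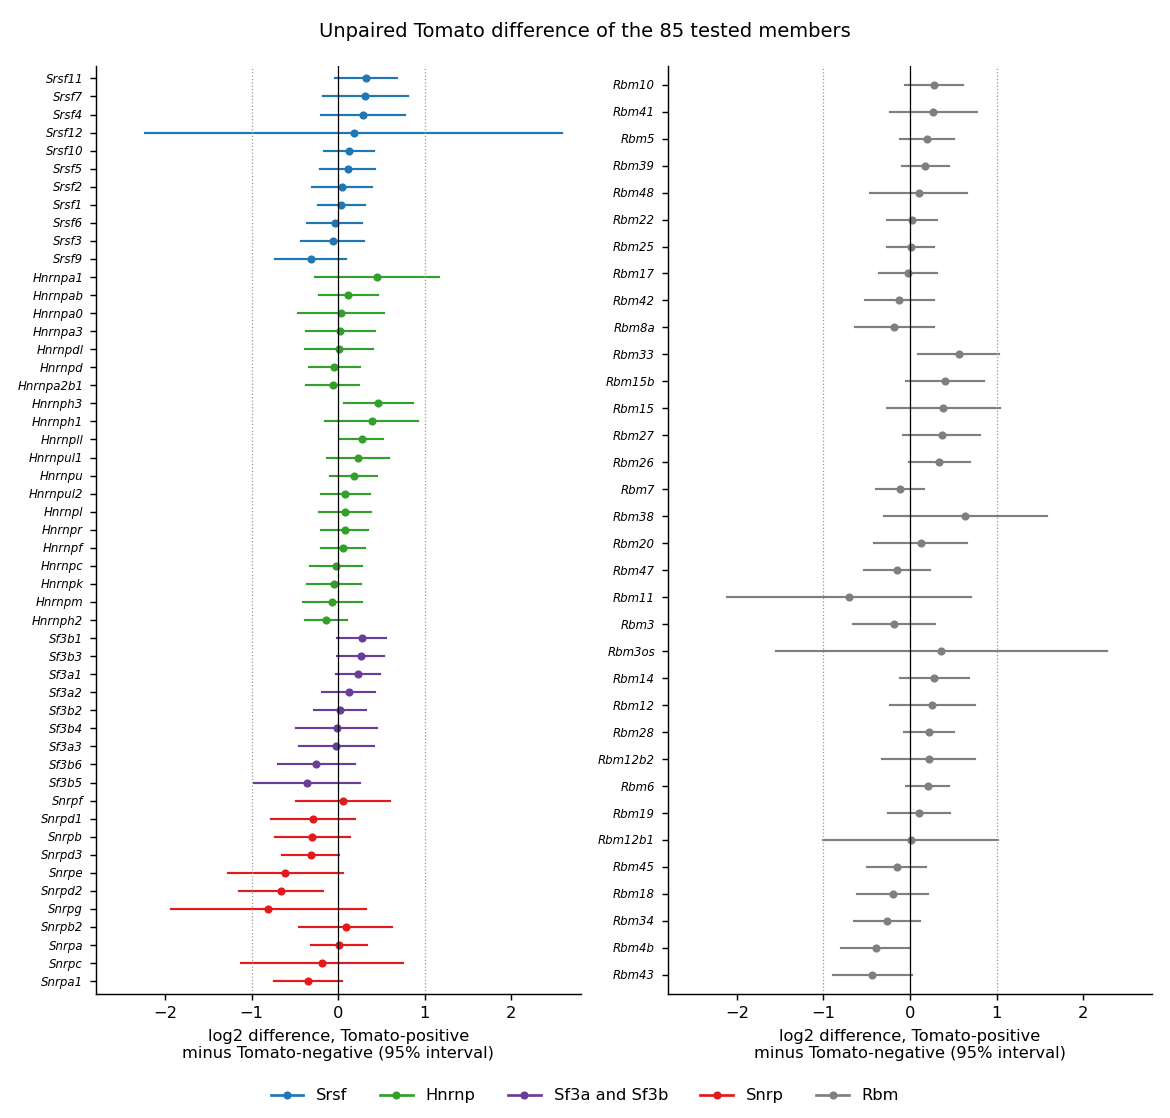
Unpaired log2 difference between Tomato-positive and Tomato-negative libraries (x axis) for each of the 85 tested members (y axis, grouped by role and coloured by family); points are edgeR estimates, bars their 95% intervals, dotted lines mark 2-fold. Most bars lie between the dotted lines, 73 of 85 wholly so, and 6 of the 7 Sm genes sit left of 0.

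Among the 11 SR protein genes tested, 8 had a positive and 3 a negative unpaired difference, from -0.32 for Srsf9 to 0.33 for Srsf11, with a median of 0.11, and none passed. Srsf1, the founding member of the family, had 167, 181, 211 and 192 CPM in the Tomato-negative and 182, 195, 198 and 196 CPM in the Tomato-positive libraries, in the order CKD523_2, CKD523_3, CKD627_1 and CKD627_2 used throughout. The groups overlapped, and its log2 difference was 0.03 ± 0.12 (SE) with a 95% interval of -0.24 to 0.31. Srsf2, Srsf3, Srsf5 and Srsf6 differed by 0.04 ± 0.16, -0.06 ± 0.16, 0.11 ± 0.14 and -0.04 ± 0.14, each smaller than its standard error. Srsf11, whose protein is found with early spliceosomal complexes, had 203, 158, 141 and 137 CPM in the Tomato-negative and 210.1, 223, 188 and 180.3 CPM in the Tomato-positive libraries. It was higher in the Tomato-positive library of all 4 identifiers, by a log2 difference of 0.34 ± 0.13 in paired edgeR (adjusted p = 0.159), although the groups overlapped. Srsf9 went the other way in 3 of 4 identifiers, at 59.2 ± 14.0 CPM (SD, n = 4) in the negative and 47.6 ± 5.36 CPM in the positive libraries (unpaired log2 difference -0.32 ± 0.18, adjusted p = 0.394). Srsf12 had too few counts, below 10 in some libraries, for any statement on its direction.

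The 20 hnRNP genes tested included 14 with a positive difference, with a median of 0.06 and a range of -0.14 to 0.46, and none passed. The most counted, Hnrnpa2b1, whose protein packages nascent RNA and reads methylated adenosine, had 679, 682, 691 and 561 CPM in the Tomato-negative and 633, 688, 581 and 601 CPM in the Tomato-positive libraries. The groups overlapped fully, at 653 ± 61.7 and 626 ± 46.9 CPM (SD, n = 4 each), and the 95% interval of the log2 difference was -0.37 to 0.24. Hnrnpc, which binds uridine tracts, Hnrnpk, which binds cytidine tracts, and Hnrnpa3 differed by -0.03 ± 0.13, -0.05 ± 0.14 and 0.03 ± 0.18. Each of these intervals includes 0 and excludes a 2-fold change in either direction. Hnrnpu, the scaffold attachment factor of nuclear chromatin, was at 478, 478, 426 and 442 CPM in Tomato-negative and 525, 537, 495 and 511 CPM in Tomato-positive libraries. All 4 positive libraries stood above all 4 negative ones, by a log2 difference of 0.18 ± 0.12 (adjusted p = 0.463, edgeR). Hnrnpll, a regulator of alternative exons best known from lymphocytes, had 70.7, 67.2, 66.2 and 61.1 CPM in the Tomato-negative and 75.2, 83.9, 84.9 and 75.5 CPM in the Tomato-positive libraries. Its groups did not overlap either, and the log2 difference was 0.27 ± 0.11 (unadjusted p = 0.0394, adjusted p = 0.255, edgeR). Hnrnph3, a relative of Hnrnph1 that binds guanosine runs, was higher in the positive library of all 4 identifiers, at 31.9 ± 3.97 against 43.8 ± 9.05 CPM, with a log2 difference of 0.46 ± 0.18 and an adjusted p of 0.224 (edgeR).

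Of the 9 SF3A and SF3B genes, 5 had a positive difference, the median was 0.02 and every interval lay within 2-fold. Sf3b1, whose protein clamps the branch point adenosine, had 305, 311, 297 and 299 CPM in the Tomato-negative and 387, 399, 316 and 363 CPM in the Tomato-positive libraries. The negative libraries lay close together at 303 ± 6.36 CPM and all 4 positive ones were above them at 366 ± 36.8 CPM (SD, n = 4 each), for a log2 difference of 0.27 ± 0.13 and an adjusted p of 0.293 in edgeR. Sf3b3 and Sf3a1 also had all positive libraries above all negative ones, by 0.26 ± 0.12 and 0.23 ± 0.11, with adjusted p-values of 0.297 and 0.329 (edgeR). Sf3b2 overlapped between groups, at 244 ± 31.5 and 247 ± 16.1 CPM (log2 difference 0.02 ± 0.14). The smallest subunit gene, Sf3b5, had a negative difference of -0.36 ± 0.27 that came mostly from the CKD627_1 identifier, where it was 87.9 CPM in the negative and 32.1 CPM in the positive library.

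The Snrp genes leaned lower in the Tomato-positive libraries, without a member that passed. Of 11 tested, 3 had a positive difference and the median was -0.30; of the 7 Sm ring genes 6 were negative, with a median of -0.32, beside a median of 0.01 over all genes. Snrpd2, which encodes one of the Sm D proteins, had 34.6, 32.7, 58.1 and 37.1 CPM in the Tomato-negative and 31.2, 21.2, 24.4 and 26.2 CPM in the Tomato-positive libraries; the gene lies at chr7:19149722-19153542 of GRCm38. All 4 positive libraries were below all 4 negative ones, with an unpaired log2 difference of -0.66 ± 0.22 (95% interval -1.15 to -0.17) and an adjusted p of 0.171 in edgeR. Snrpe had 25.6, 24.1, 60.3 and 27.0 CPM in the Tomato-negative and 23.4, 21.6, 21.3 and 23.4 CPM in the Tomato-positive libraries. The groups did not overlap, but the 3 negative libraries other than CKD627_1 lay close to the positive ones, and without that library the log2 difference went from -0.61 to -0.19. For Snrpd2 it went from -0.66 to -0.44 (adjusted p = 0.23, edgeR), and for Snrpd3, whose groups also did not overlap, from -0.32 to -0.20 (adjusted p = 0.423). Snrpa1, a protein of the branch point particle, was at 22.8, 24.3, 32.7 and 22.1 CPM in the negative and 17.6, 20.2, 21.2 and 20.8 CPM in the positive libraries, again without overlap (log2 difference -0.35 ± 0.17, adjusted p = 0.325, edgeR). Snrpb, the most counted Sm gene, overlapped between groups at 150.3 ± 36.3 and 122 ± 19.5 CPM (-0.30 ± 0.19, from which the value without that library was -0.12), and Snrpf and Snrpb2 differed by 0.06 ± 0.24 and 0.08 ± 0.24. Snrpn, a tissue-restricted Sm gene, had no count in any library, and its exons overlap those of Snurf on the same strand, which had none either. How reads over both genes were counted is not stated, so this does not show that Snrpn RNA was absent.

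One library carried much of this lean. Summed over the 7 Sm ring genes, the Tomato-negative libraries had 284, 295, 463 and 289.7 CPM and the Tomato-positive ones 284, 261, 240.1 and 253 CPM. The Tomato-negative library CKD627_1 stood far above the other 7, and the lowest negative and the highest positive library were both near 284 CPM. It was the highest of the 8 libraries for 34 of 85 members (40.0%, against 21.5% of all genes tested), and for 10 of the 11 Snrp genes. Without it, an alternative chosen after the values were seen, the Sm ring median was -0.19 with 6 of 7 genes still negative, and the Snrp median was -0.12 with 7 of 11 negative; over all genes the median was then 0.02. Length moved with the same difference: across the 85 members, the Spearman correlation of merged exon length with the unpaired log2 difference was 0.35, and across all 14040 tested genes with a length it was 0.34. Within the pairs it was -0.09, 0.17, 0.57 and 0.36 for the members, and 0.07, 0.14, 0.49 and 0.26 for all genes, in the order of identifiers above. The median merged exon length was 1976 bases for the Sm ring genes and 4810 bases for the members tested. These correlations run over genes of the same libraries, which are not independent, and the part of length in the lower Sm values was not tested.

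**Figure D2:**
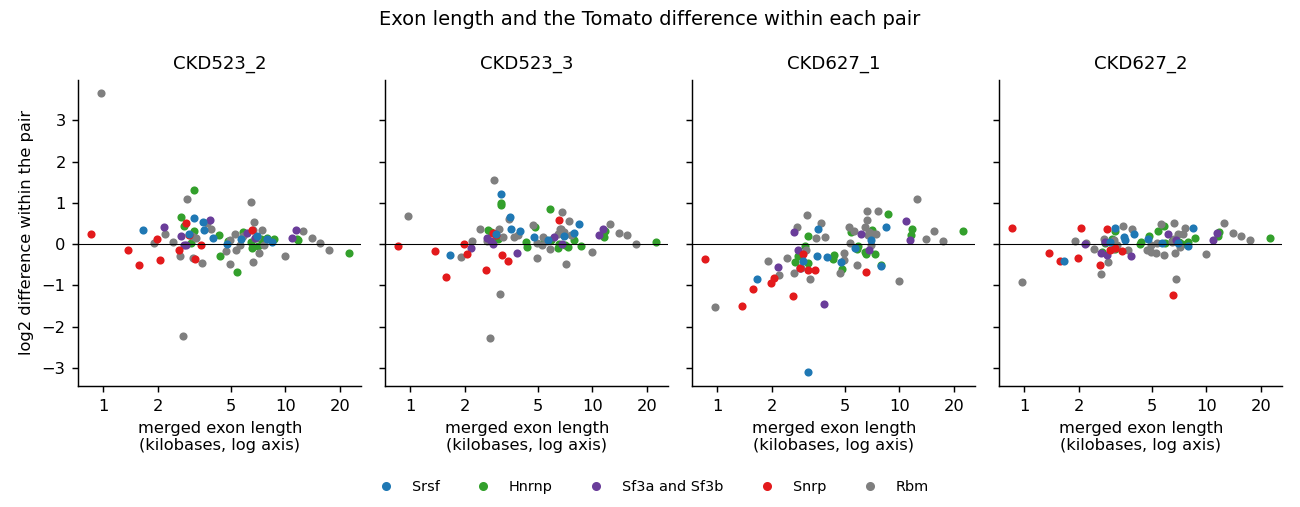
Log2 difference within each pair (y axis) against merged exon length in kilobases (x axis, log scale) for the 85 tested members, 1 panel per identifier, coloured by family. In CKD627_1 all 11 Snrp genes lie below 0. The differences there are larger in genes with longer merged exons (Spearman 0.57), whereas in CKD523_2 they are not (-0.09).

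The RBM genes that act in adenosine methylation, export and nuclear decay leaned the other way. These were Rbm15 and Rbm15b, which guide the methyltransferase to RNA, Rbm33, Rbm26 and Rbm27, which act in nuclear export and decay, and Rbm7, of the nuclear exosome targeting complex. Of the 6 genes, 5 had a positive unpaired difference and the median was 0.37, beside 0.01 over all genes, and none passed. At an unadjusted p under 0.05, 1 was higher in unpaired edgeR (16.7%, against 17.8% of all genes). In paired edgeR 4 were higher at that level (66.7%, against 25% of all genes). Summed, they stood at 296, 296, 218 and 280.1 CPM in Tomato-negative and 359.8, 367, 321 and 334 CPM in Tomato-positive libraries, so the groups did not overlap. The lowest sum was again that of the negative library CKD627_1, without which the median was 0.24. Their median merged exon length was 7033 bases, beside 4810 bases for the members tested. This length merges all annotated transcripts of a gene, and its part in their difference was not tested.

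Rbm33, at chr5:28317121-28419239 of GRCm38, had 90.7, 80.6, 44.7 and 79.2 CPM in the Tomato-negative and 113, 113, 95.6 and 114 CPM in the Tomato-positive libraries. Every positive library was above every negative one and above its own partner, with an unpaired log2 difference of 0.56 ± 0.21 (95% interval 0.09 to 1.03, adjusted p = 0.212) and a paired one of 0.60 ± 0.16 (adjusted p = 0.0535) in edgeR; without the Tomato-negative library CKD627_1 the unpaired value was 0.38. Whether it passed turned on the block, tool, scaling and libraries. With the identifier block the adjusted p was 0.0129 in DESeq2, 0.0356 in limma-voom, 0.0425 in edgeR with library size as the only scaling and 0.0484 in edgeR without the CKD627_1 pair; without the block none of the 3 tools called it. DESeq2 with the block also called Snrpd2 (adjusted p = 0.0359). In these blocked fits, in the order given, 2, 1, 1 and 1 of the 85 members passed. Of all genes 14.2%, 9.72%, 7.65% and 9.25% did. Rbm15 was higher in the positive library of all 4 identifiers, at 29.4, 28.7, 16.1 and 21.3 against 37.4, 42.6, 19.3 and 25.3 CPM, and its groups overlapped. The paired log2 differences of Rbm15, Rbm15b, Rbm27 and Rbm26 were 0.36 ± 0.15, 0.43 ± 0.19, 0.39 ± 0.16 and 0.35 ± 0.16, with adjusted p-values of 0.191, 0.187, 0.172 and 0.216 in edgeR. Rbm7 was the exception, with an unpaired log2 difference of -0.11 ± 0.12.

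The 10 RBM genes of the spliceosome itself had a median difference of 0.06, 7 of them positive, and all intervals lay within 2-fold. Rbm25, a regulator of splice site choice, and Rbm39, a relative of the polypyrimidine tract factor, differed by 0.01 ± 0.12 and 0.18 ± 0.12. Rbm5, known for its control of exons in cell death genes, had 89.7, 74.5, 94.4 and 89.8 CPM in the Tomato-negative and 91.6, 87.0, 118 and 103 CPM in the Tomato-positive libraries; it was higher in 4 of 4 identifiers by 0.20 ± 0.14 and the groups overlapped. The related gene Rbm6 separated the groups fully, at 52.7 ± 2.62 and 60.6 ± 2.50 CPM (log2 difference 0.20 ± 0.11, adjusted p = 0.363, edgeR). Rbm14, of nuclear paraspeckles, was higher in 4 of 4 identifiers by 0.28 ± 0.18, while Rbm4b was lower in all 4, at 16.4, 16.3, 19.2 and 15.4 against 13.4, 14.2, 10.3 and 13.1 CPM (log2 difference -0.40 ± 0.18, adjusted p = 0.283, edgeR). Of its 50-base exon words, 33.9% also occur in other genes, mostly in Gm37206 on the opposite strand.

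The tissue-restricted RBM regulators were mostly low. Rbm47, an epithelial regulator and the most counted of them, was at 205, 228, 134 and 178 CPM in Tomato-negative and 177, 163, 159 and 171 CPM in Tomato-positive libraries, which overlapped (-0.16 ± 0.17). Rbm20, the splicing regulator of titin in heart muscle, was detected in every library at 12.9 to 25.8 CPM and differed by 0.12 ± 0.24. Rbm11 had 2.95, 4.94, 2.23 and 3.56 CPM in the negative and 0.538, 0.921, 3.00 and 3.88 CPM in the positive libraries. It was lower in both CKD523 positive libraries and not in the CKD627 ones, and within CKD523 alone the log2 difference was -2.41 ± 0.72 with an adjusted p of 0.0505 (edgeR), outside the threshold. Rbm24, a muscle regulator, stayed just outside the depth rule with 10 or more counts in 3 libraries, and the least counted members inside it were Hnrnpa1l2-ps2, Srsf12, Rbm3os and Rbm11, each under 10 counts in at least 1 library. Rbm3, induced by cold, overlapped between groups at 38.4 ± 11.8 and 33.8 ± 2.76 CPM (-0.18 ± 0.21); Rbm3os lies on its opposite strand, and as the counting is not stated to use strand, reads of the pair cannot be told apart.

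Counted without a model, the Tomato groups were fully apart for 12 of the 85 members. All positive libraries were above all negative ones for 7 (Hnrnpll, Hnrnpu, Sf3a1, Sf3b1, Sf3b3, Rbm6 and Rbm33), which is 8.24% of members against 6.74% of all genes tested. They were below for 5 (Snrpd2, Snrpd3, Snrpe, Snrpa1 and Rbm4b), which is 5.88% against 6.48%. These shares lie near the background and are no result about the members as a set.

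**Figure D3:**
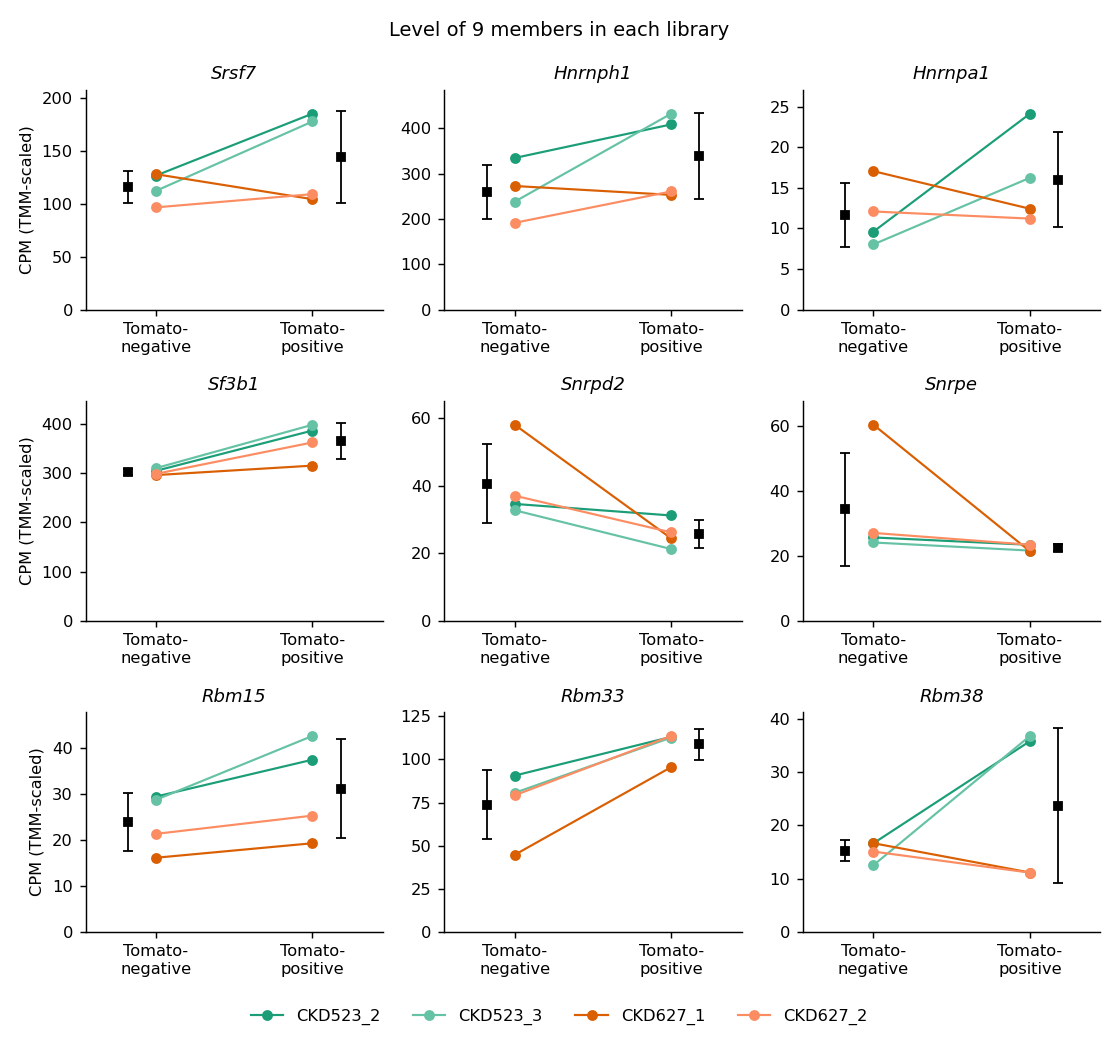
TMM-scaled CPM (y axis, from 0) of 9 members in each library; lines join the Tomato-negative and Tomato-positive library of an identifier, and black squares with bars give the group mean and SD (n = 4). Sf3b1 and Rbm33 are higher and Snrpd2 and Snrpe lower in all positive libraries, while Rbm38 is higher in the positive library of both CKD523 pairs and lower in that of both CKD627 pairs.

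The sign of the difference varied between identifiers for most members. Within pairs, 59, 61, 34 and 53 of the 85 members were higher in the Tomato-positive library, with medians of 0.14, 0.16, -0.20 and 0.05, while over all genes no pair had a median further from 0 than 0.03. The CKD523 pairs and the CKD627_1 pair thus stood on opposite sides of 0. Only 16 members were higher in all 4 pairs (18.8%, against 17.9% of all genes) and 7 lower in all 4 (8.24%, against 17.6%). For 12 members (14.1%, against 6.45% of all genes) the positive library was higher in both CKD523 pairs and lower in both CKD627 pairs, and 3 had the opposite pattern (3.53%, against 7.29%).

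**Figure D4:**
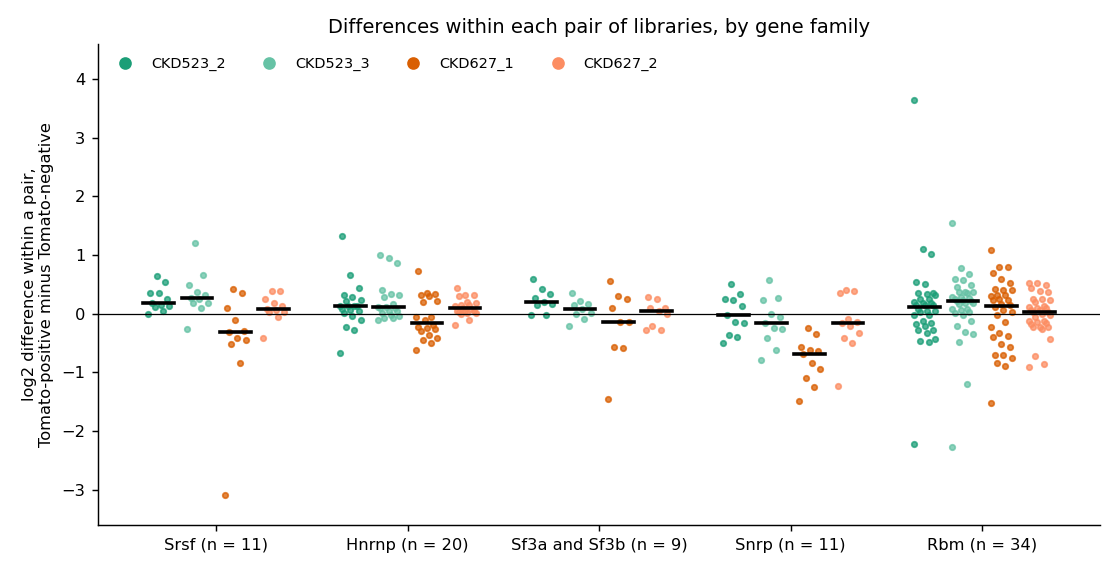
Log2 difference within each pair (y axis) for every tested member, by family (x axis) and identifier (colour); black bars are medians. In CKD627_1 the medians of the Srsf, Hnrnp, Sf3 and Snrp families lie below 0 and that of Snrp is the lowest of all, while the Rbm median stays above 0.

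Within the 4 CKD523 libraries alone, 6 members were higher in the Tomato-positive libraries and 0 lower (7.06% of members, against 15.7% of all genes called there): Rbm38, Srsf7, Hnrnpa1, Hnrnpa0, Hnrnph3 and Hnrnph1. Within the 4 CKD627 libraries alone 0 members passed, and 2.07% of all genes did; 2 members were higher and 6 lower at an unadjusted p under 0.05 (9.41%, against 20.3% of all genes). Rbm38, a p53 target whose protein binds messenger RNAs such as that of p21, had 16.6, 12.5, 16.6 and 15.1 CPM in the Tomato-negative and 35.8, 36.8, 11.1 and 11.1 CPM in the Tomato-positive libraries. Both CKD523 positive libraries were more than 2-fold above their partners, while both CKD627 positive libraries were below theirs, and the log2 differences were 1.32 ± 0.20 (adjusted p = 0.00184) and -0.54 ± 0.31 (adjusted p = 0.347, edgeR). Hnrnpa1, which promotes exon skipping, had 9.60, 8.03, 17.0 and 12.1 CPM in the Tomato-negative and 24.1, 16.2, 12.4 and 11.2 CPM in the Tomato-positive libraries. It followed the same order, with log2 differences of 1.19 ± 0.28 (adjusted p = 0.0182) in CKD523 and -0.34 ± 0.33 in CKD627. Srsf7, an SR protein that also takes part in RNA export, had 127, 112, 128 and 96.5 CPM in the Tomato-negative and 185, 178, 104 and 109 CPM in the Tomato-positive libraries. Its differences were 0.60 ± 0.12 (adjusted p = 0.00785) and -0.11 ± 0.23, and the CKD523 positive libraries stood above the other 6. For Hnrnph1, Hnrnph3 and Hnrnpa0 the CKD523 differences were 0.55 ± 0.15, 0.63 ± 0.17 and 0.49 ± 0.12, and the CKD627 ones 0.11 ± 0.23, 0.22 ± 0.25 and -0.35 ± 0.20.

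That the difference itself varied between prefixes was tested as an interaction of prefix and Tomato group. No member passed, and 0.014% of all genes did (2 of 14284); 10 members (11.8%, against 13.2% of all genes) were under an unadjusted p of 0.05, 1 with a larger and 9 with a smaller difference in CKD627. The smallest p was that of Rbm38, with an interaction of -1.83 ± 0.33 on the log2 scale and an adjusted p of 0.136 (edgeR), followed among lower values by Hnrnpa0 at -0.80 ± 0.23 and Hnrnpa1 at -1.497 ± 0.43, both with an adjusted p of 0.23. On the other side were Rbm11 at 2.66 ± 0.91, Rbm26 at 0.50 ± 0.24 and Hnrnpa3 at 0.57 ± 0.29, with adjusted p-values of 0.279, 0.404 and 0.432. So the 6 genes called in CKD523 alone were not shown to differ from CKD627 in their response by this test. DESeq2 called Rbm38 (adjusted p = 0.00207). The median interaction was -0.16 over the members and 0.01 over all genes in edgeR, with 29.4% and 50.7% positive. The member median was -0.31 without the Tomato-negative library CKD627_2 and -0.07 without the Tomato-negative library CKD627_1, beside 0.04 and 0.02 over all genes. Either fit leaves 1 negative library in CKD627, so its calls are not given. Summed immediate early genes stood at 15302 to 16586 CPM in the negative libraries. In the positive ones they stood at 26336 to 26789.8 CPM in CKD523 and 19933 to 21469 CPM in CKD627, so above the negative ones in both prefixes. Heat shock genes summed to 7230 to 10896 CPM in CKD523 and 4855 to 5838 CPM in CKD627. Their part in the differences of these members was not tested.

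**Figure D5:**
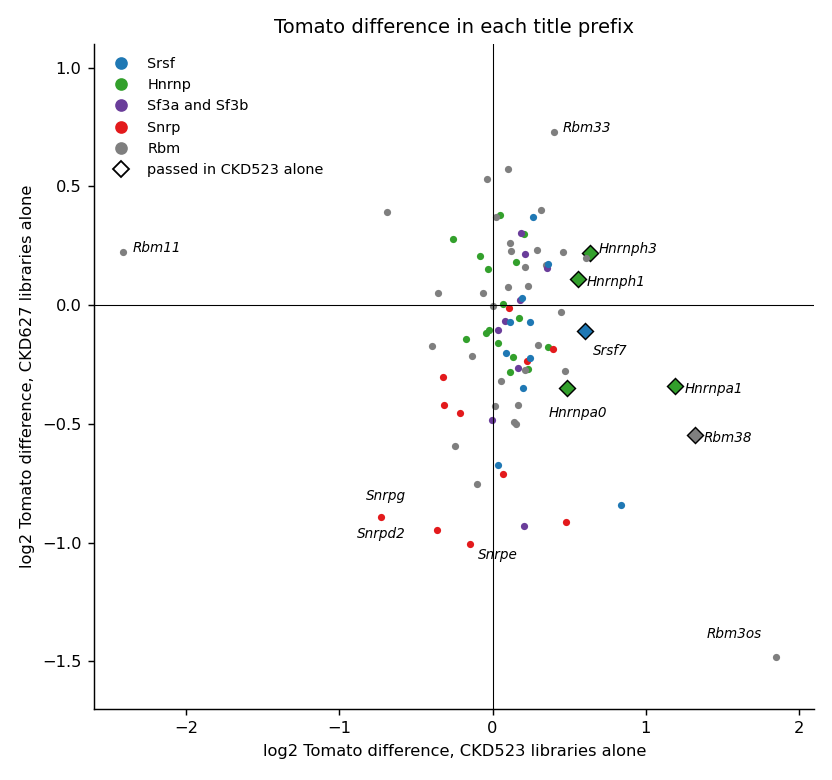
Log2 Tomato difference in the 4 CKD523 libraries (x axis) against that in the 4 CKD627 libraries (y axis) for the 85 tested members, coloured by family; diamonds mark the 6 members that passed in CKD523 alone. Rbm38, Hnrnpa1 and the rarely counted Rbm3os lie to the lower right, Snrpd2 and Snrpe are low on the y axis, and Rbm33 is at the top.

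The 250 bases before the RefSeq start of 3 of these genes are shown because they are the 3 with the smallest adjusted p in CKD523. They were read from the RefSeq table of GRCm38.p6, which held 73 of the 86 members; Rbm38 is chr2:173021652-173021901 on the plus strand, Srsf7 is chr17:80207306-80207555 on the minus strand and Hnrnpa1 is chr15:103240147-103240396 on the plus strand, each written 5′ to 3′ on the strand of its gene. Capitals mark matches, on either strand, to the CCAAT box (CCAAT), the GC box (GGGCGG), an ETS core (CCGGAAG), an NRF1 core (GCATGCGC), the cyclic AMP element (TGACGTCA) or a TATA box (TATAAA).
Rbm38: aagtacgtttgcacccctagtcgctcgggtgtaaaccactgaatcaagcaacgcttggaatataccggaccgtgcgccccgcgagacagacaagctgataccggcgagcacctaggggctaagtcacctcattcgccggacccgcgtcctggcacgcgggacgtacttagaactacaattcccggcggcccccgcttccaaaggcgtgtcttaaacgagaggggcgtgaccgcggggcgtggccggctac
Srsf7: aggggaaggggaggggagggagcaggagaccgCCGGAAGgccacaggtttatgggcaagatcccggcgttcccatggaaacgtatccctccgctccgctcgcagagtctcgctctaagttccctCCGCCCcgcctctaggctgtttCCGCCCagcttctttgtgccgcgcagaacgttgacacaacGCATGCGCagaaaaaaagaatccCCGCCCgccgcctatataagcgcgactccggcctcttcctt
Hnrnpa1: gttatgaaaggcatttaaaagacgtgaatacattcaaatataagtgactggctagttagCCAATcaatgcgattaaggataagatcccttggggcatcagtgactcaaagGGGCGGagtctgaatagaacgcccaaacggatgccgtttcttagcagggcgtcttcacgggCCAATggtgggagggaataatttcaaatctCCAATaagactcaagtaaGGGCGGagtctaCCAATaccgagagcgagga

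The 3 windows had little in common in these letters. That of Hnrnpa1 held CCAAT 4 times and GGGCGG 2 times, and that of Srsf7 held GGGCGG 3 times with CCGGAAG and GCATGCGC once each. That of Rbm38 held none of the 6 motifs, which says only that these letters are not in its window. GENCODE M21 places Rbm38 at chr2:173020498-173034734, so its window lies inside the annotated gene, after the first annotated start. Over all 91 promoter windows of members, CCGGAAG occurred in 26.4%, against 12.3% of the 14397 windows of tested genes and 6.91% of all 32851 windows. It was most frequent among SF3 genes, in 6 of 7 with a window (Sf3a1, Sf3a2, Sf3a3, Sf3b2, Sf3b3 and Sf3b6), and was in 4 of 11 Srsf, 3 of 9 Snrp, 5 of 27 Rbm and 2 of 19 Hnrnp genes. The other motifs were near the share of tested genes: CCAAT in 41.8% of member windows against 35.0% of those of tested genes and 33.8% of all, GGGCGG in 58.2% against 55.7% and 32.7%, GCATGCGC in 4 windows against 3.92% and 2.26%, TGACGTCA in 2 windows against 2.42% and 1.55%, and TATAAA in 9.89% against 6.77% and 12.4%. Some genes have several windows, which overlap and are not independent.

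Between prefixes, with the 2 libraries of an identifier summed (2 identifiers against 2), 5 of the 86 members were lower in CKD627 and 0 higher in edgeR, against 21.8% of all genes called; 3 were higher and 9 lower at an unadjusted p under 0.05 (14.1% of the 85 tested between Tomato groups, against 33.8% of all genes), and DESeq2 called the same 5. These were Rbm38, Rbm15, Hnrnph1, Srsf7 and Rbm12. Rbm38 differed by -0.99 ± 0.18 (adjusted p = 0.00279) and Rbm15 by -0.80 ± 0.18 (adjusted p = 0.00885) on the log2 scale. Hnrnph1, Srsf7 and Rbm12 ranged between -0.50 and -0.57, with adjusted p-values of 0.0127, 0.0202 and 0.0319. Rbm15 was lower in CKD627 within both groups, at 29.4, 28.7, 16.1 and 21.3 CPM in negative libraries and, as above, in the positive ones. Rbm38 was not: its 4 negative libraries lay between 12.5 and 16.6 CPM in both prefixes, and the prefix difference among negative libraries alone was 0.07. Among negative libraries alone, where 17.6% of all genes passed, none of the 5 did and Hnrnpa0 was higher in CKD627. Among positive libraries alone, where 13.0% passed, all 5 and Srsf2 were lower. In the direction of higher CKD627 the smallest p-values were those of Rbm14, Hnrnpa0, Snrpb2, Snrpf and Snrpe, with log2 differences of 0.37 ± 0.14, 0.32 ± 0.14, 0.37 ± 0.16, 0.42 ± 0.21 and 0.45 ± 0.23 and adjusted p-values of 0.103 to 0.21 in edgeR. With library size as the only scaling, which moved the median of all genes to 0.19, the 5 calls became 3 higher (Rbm14, Snrpb2, Hnrnpa0) and 2 lower (Rbm38, Rbm15). The prefix also separated the proximal tubule markers and heat shock genes given above, and their part in these values was not tested.

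Other genes of RNA splicing, from lists of proteins that are no members, were examined in the same fits. In the unpaired test 0 of them passed, as for the members; in the paired test the counts were as follows. None passed among 60 other proteins of the small nuclear particles, 12 LSm proteins, 14 proteins of particle assembly, 37 SR-related proteins and SR kinases and 16 proteins of the exon junction and nonsense-mediated decay. At an unadjusted p under 0.05 in paired edgeR, 4 of the 60 were higher and 2 lower (10%, against 25% of all genes). Of the 16, 3 were higher (18.8%), and 0 of the LSm and assembly proteins were under that p. The LSm proteins, which form a ring like the Sm proteins, had 11 of 12 unpaired differences below 0 with a median of -0.18, and the proteins of particle assembly 10 of 14 with -0.18. By prefix the LSm median was 0.03 in CKD523, with 7 of 12 positive, and -0.45 in CKD627, with 2 of 11 positive. The SR-related proteins leaned higher, with 27 of 37 positive, a median of 0.21 and 12 higher and 0 lower at an unadjusted p under 0.05 in paired edgeR (32.4%, against 25% of all genes). Among them Srrm2, the large scaffold protein of nuclear speckles, had 480.4, 378, 141 and 342 CPM in the Tomato-negative and 530.3, 615, 528 and 541 CPM in the Tomato-positive libraries (paired log2 difference 0.84 ± 0.25, adjusted p = 0.0822, edgeR).

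Among 48 other splicing regulators, 3 rose and 2 fell in the paired test (edgeR), a share of 10.4% that lies near the 7.62% of all genes and is no result about the list. Khdrbs3, a STAR family regulator, had 17.8, 20.4, 26.0 and 27.7 CPM in the Tomato-negative and 9.99, 7.37, 12.5 and 7.66 CPM in the Tomato-positive libraries. All positive libraries were below all negative ones, by a paired log2 difference of -1.30 ± 0.23 (adjusted p = 0.0134; unpaired 0.0564, edgeR). Rbms3 had 56.5, 44.0, 27.9 and 33.8 CPM in the Tomato-negative and 77.6, 81.9, 86.5 and 85.6 CPM in the Tomato-positive libraries and rose by 1.08 ± 0.20 (adjusted p = 0.0159, edgeR). Ptbp3, a polypyrimidine tract binding protein, rose by 0.68 ± 0.13 and Celf2 by 0.73 ± 0.16, while Rbpms2 fell with a log2 difference of -0.60 ± 0.14 (adjusted p = 0.0187, 0.0313 and 0.033). The direction of each of the 5 matched between CKD523 and CKD627. These genes were picked by a test over both prefixes, which favours such a match, so it is no separate result. In the same paired test 8 of 8 principal cell markers rose and 5 of 14 proximal tubule markers fell, and their part in these changes was not tested.

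Of 19 nuclear long RNAs tested, 2 rose in the paired test (Neat1 and Snhg11), which is 10.5% and again near the 7.62% of all genes. Neat1, the scaffold of paraspeckles, had 909, 623, 647 and 427 CPM in the Tomato-negative and 1278, 1377, 883 and 967 CPM in the Tomato-positive libraries and rose by 0.82 ± 0.17 on the log2 scale (adjusted p = 0.0251, edgeR). Malat1, an RNA of nuclear speckles, had 814, 642, 371 and 579 CPM in the Tomato-negative and 946, 895, 1222 and 1235 CPM in the Tomato-positive libraries, a paired log2 difference of 0.88 ± 0.24 that did not pass (adjusted p = 0.0583). The summed level of the list was 1228 to 2095 CPM in Tomato-negative and 2353 to 2654 CPM in Tomato-positive libraries, without overlap. Neat1 and Malat1 made up most of this sum. Over the 19 RNAs the median unpaired log2 difference was 0.01, with 10 positive, so the higher sum is not a rise of the whole list. The share of nuclear RNA in a library was not measured otherwise.

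What a gene-level count can hide differs between members. In the annotation (GENCODE M21), 36 of the 84 protein-coding members tested (42.9%) have a transcript marked for nonsense-mediated decay, against 27.8% of 13446 protein-coding genes tested, and among Srsf genes 9 of 11. A shift between such a transcript and the coding one need not change the count of the gene, and was not measurable here. Reads of several members may be shared with another annotated gene, either a copy elsewhere or a transcript over the same bases: the share of 50-base exon words found in another gene, on either strand, was 89.5% for Snrpf, 73.6% for Rbm42, 61.9% for Hnrnpf, 45.3% for Sf3b4, 42.8% for Rbm10 and 39.5% for Srsf4. For Snrpf these lay mostly in Ccdc38 and for Srsf4 in Gm12992, both on the opposite strand at the same place, and for Rbm42 in Gm21982 on the same strand. Exons of Rbm38, Hnrnph3, Snrpd3, Rbm10 and Hnrnpu also overlap genes of the opposite strand (Gm14453 and Gm20490, Rufy2, Gucd1, Ndufb11 and Cox20), so levels and differences of these members are uncertain to that extent.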

How the data were processed

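RNA from 8 libraries was compared through 1 deposited table of whole-number counts per gene; per the file headers its columns name Subread alignments, and per the submitters' processing notes the authors used mm10, edgeR 3.32.1 and limma 3.46.0. The strand setting and the annotation behind the counts are not named by a label. Groups, identifiers and prefixes came from the titles. Totals of 13474439 to 19886202 counts set the precision.

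The members and lists were chosen with earlier results of these data known. Genes were filtered with filterByExpr (minimum count 10, total 15) and scaled with TMM, and edgeR 4.0.16 (R 4.3.3) quasi-likelihood tests were fitted to all genes with Benjamini-Hochberg adjustment at 0.05 and checked on simulated counts. The main fit was unpaired over all 8 libraries. Deviations of same-identifier libraries from their group means correlated at 0.46, 0.32, 0.33 and 0.47 over all genes, all over 0.1, so paired values are given where they change a call or a count. Libraries of the same prefix but another identifier correlated as highly (0.34, 0.42, 0.30 and 0.47), so the check does not separate identifier from prefix, and over the members alone the same-identifier values were -0.03, 0.13, -0.14 and -0.01. The prefix comparison used counts summed per identifier, and the interaction all 8 libraries.

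Named members were 24 regulators whatever their result, any member past the threshold in the unpaired or paired fit (none was), the 3 smallest p-values of each family, up to 5 per direction between prefixes, up to 3 per direction for the interaction, and up to 3 per list of other splicing genes. Other members were named after their values were seen. Alternatives were pairing, prefix as covariate, each prefix alone, other scalings, filters, DESeq2 1.42.0, limma-voom 3.58.1, and leaving out each library or pair. Lengths, transcript kinds and overlaps are from GENCODE M21 (GRCm38), promoters from RefSeq GRCm38.p6.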

Additional observations from a re-analysis of the deposited data

Results flagged for a closer look

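In groups of 4, the gap of the highest or lowest library to its nearest neighbour, as a share of the range, was compared with Dixon's 95% critical value for 42 named members in both Tomato groups. Of 84 groups, 6 passed, where chance gives about 1 in 20 groups. The Tomato-negative library CKD627_1 was highest for Hnrnpk (384 CPM, others 292 to 307), Snrpd2 (58.1 CPM, others 32.7 to 37.1) and Snrpe (60.3 CPM, others 24.1 to 27.0). Its Tomato-positive partner was lowest for Rbm33, at 95.6 CPM beside 113 to 114. The Tomato-negative library CKD627_2 was lowest for Hnrnpa2b1, at 561 CPM beside 679 to 691. Srsf1 was lowest in the Tomato-positive library CKD523_2, at 182 CPM beside 195 to 198.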

How the results depend on the processing

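The count of members called between Tomato groups was 0 in the unpaired test and 0 with the replicate block. It was 6 in CKD523 alone (15.7% of all genes) and 1 with the replicate block and library size only (Rbm33, with 7.65% of all genes). With the replicate block it was 2 in DESeq2 (Rbm33 higher, Snrpd2 lower, with 14.2% of all genes). In limma-voom with the replicate block it was 1 (Rbm33, with 9.72% of all genes). Leaving out libraries or pairs gave 0 to 1, the 1 being Rbm33 in the paired fit without CKD627_1 (9.25% of all genes). Of 42 named members, 14 had the opposite sign in CKD627 alone, 8 in CKD523 alone and 8 in the paired fit without CKD627_1. Over all genes the calls were 85 in the unpaired test, 45 without a filter on low counts, 6 to 26 without 1 library, 1008 in DESeq2, 1089 with the block, 1527 with prefix as a covariate and 2026 in DESeq2 with the block.

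Between prefixes, 5 members were called (21.8% of all genes), 3 with 8 libraries and the Tomato group as covariate (Rbm14, Hnrnph1, Rbm15; 21.1%), 6 among Tomato-positive libraries alone (Srsf2 added; 13.0%), 6 without a filter (Snrpe added, higher; 21.3%) and 1 among Tomato-negative libraries alone (Hnrnpa0; 17.6%), where Rbm38 turned from -0.99 to 0.073. The interaction called 0 members, 0 with the replicate block and 1 in DESeq2 (Rbm38). Its fits without 1 library leave 1 library in a combination of prefix and Tomato group, so their calls are not given. The all-gene calls of the interaction were 2, against 20 with the block and 257 in DESeq2. The cause of these shifts was not tested. With 4 libraries a group, the intervals of the low members Srsf12, Rbm3os, Rbm11 and Snrpg reached past 2-fold. The part of counting noise in this was not tested.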
